A study of Mus musculus with 4 samples.

Results

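The genes described here move ions across the intestinal epithelium or carry the guanylin signal that controls that movement, and they were taken by name from the table of normalized expression: the exchangers Slc9a3, Slc26a3 and Slc26a6, the channel Cftr, the cotransporter Slc12a2, the pump subunit Atp1b1, the ligands Guca2a and Guca2b and their receptor Gucy2c. All 9 were in the table, which held 22458 symbols once short RNAs were left out and rows of one symbol were summed, and all 9 were among the 10883 genes tested. RNA-seq was made from jejunal epithelium of adult mice of mixed 129xC57/Bl6xSvJ background, with 2 libraries labelled as Hnf4a;Cdx2 double knockout and 2 as Cre-negative controls. Every mouse, controls included, received 1 mg of tamoxifen on each of 5 days. Treatment with 5 mM EDTA for 45 minutes at 4 °C is recorded for all 4 samples. Hnf4a and Cdx2 encode transcription factors of the intestinal epithelium, and the comparison asked what differs when both are targeted. The Cre driver, the age beyond adult and the time between tamoxifen and harvest are not stated in any source used here. Levels are in FPKM, which corrects for how long a transcript is and how deeply its library was read, so they can be set beside each other between genes.

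In the small intestine the absorptive cells take up sodium in exchange for protons (Slc9a3) and chloride in exchange for bicarbonate (Slc26a3, Slc26a6), while secretion runs through chloride entry at the basolateral side (Slc12a2) and exit at the apical side (Cftr). The sodium potassium ATPase, of which Atp1b1 is the beta subunit, provides the gradient for both. Guanylin (Guca2a) and uroguanylin (Guca2b) are peptides released into the lumen; they bind guanylate cyclase C (Gucy2c) on the same epithelium, and the cyclic GMP that follows opens Cftr and slows Slc9a3.

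The libraries summed to between 643708 and 689276 FPKM. Hnf4a stood at 31.6 and 48.2 FPKM in the libraries labelled double knockout, against 156 and 202 FPKM in controls (limma, adjusted p = 0.0147). Cdx2 stood at 160 and 161 FPKM, against 70.9 and 65.2 FPKM in controls (limma, adjusted p = 0.0150), which goes against the label for that gene; a gene-level value includes exons outside a deleted part and so does not show whether the gene was deleted. Every direction below therefore rests on the labels. Without control replicate 1 or 2 the adjusted p was 0.0624 and 0.0875 for Hnf4a and 0.0696 and 0.0868 for Cdx2, and without double knockout replicate 2 it was 0.0602 for Cdx2. The lowest value over the alternatives was 0.0145 for Hnf4a and 0.0151 for Cdx2. The epithelial markers were abundant (4747 and 5184 FPKM summed over 5 genes, against 4223 and 5310 in controls), while 5 endothelial genes summed to 0.801 and 0.628 FPKM, against 0.874 and 0.670. Among 7 absorptive enterocyte markers (25640 to 38296 FPKM summed, against 28301 and 31829) Vil1, an actin-binding protein of microvilli, was called lower (508 and 487 FPKM, against 970 and 1024), and among the epithelial markers Epcam was called lower (526 and 531 FPKM, against 1135 and 1281). Others of these lists lay higher without overlap and were not called, namely Alpi (1.71-fold), Krt18 (1.87-fold), Krt8 (1.37-fold) and Cdh1 (1.22-fold).

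Of the 9 genes, limma called 2 lower and 0 higher in the libraries labelled double knockout at an adjusted p under 0.05, namely Guca2b and Slc26a3; of all genes tested 5.80% were called lower and 3.77% higher, 9.57% in all. With FPKM estimated for each library alone these calls split differently, 482 higher and 451 lower in place of 410 and 631. At an unadjusted p under 0.05 there were 4 lower and 0 higher, the further ones being Guca2a and Gucy2c; of all genes tested 15.0% were lower and 13.3% higher at that p. The authors' deposited table, made from the same libraries, calls these 4 lower and 0 of the 9 higher, in a table where 7.31% of the genes it tests are called lower and 5.90% higher, 13.2% in all. All 9 fitted log2 fold changes were below 0, as were those of 5187 of the 10883 genes tested. The median of the 9 was -0.96, against 0.02 over all genes tested. For Slc9a3, Slc26a6 and Cftr the groups overlapped, and the sign turned in some alternatives. In 6 of the 9 both libraries labelled double knockout lay below both controls, which was so for 29.5% of all genes tested, and in 0 of the 9 both lay above, as in 31.2%. These are RNA levels of a mixed epithelium, in which fewer cells of a type and less RNA per cell cannot be told apart.

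The 250 bases before the RefSeq start of the ligand genes and of Slc26a3 are printed here because they belong to both called genes and to the ligand gene that neighbours one of them. Sequences are from RefSeq, build GRCm38.p6, 5′ to 3′ on the gene's own strand; 7 of the 9 genes had an entry. Capitals mark matches on either strand to 5 motifs. CAAAGTCCA and CAAAGGTCA are known from sites of the HNF4 family. The core ATAAA belongs to the CDX family. GATA factors are known to bind AGATAA. Proteins of the HNF1 family bind repeats of GTTAAT. The motifs were chosen after the sequences were seen.
Guca2a, chr4:119637482-119637731, plus strand: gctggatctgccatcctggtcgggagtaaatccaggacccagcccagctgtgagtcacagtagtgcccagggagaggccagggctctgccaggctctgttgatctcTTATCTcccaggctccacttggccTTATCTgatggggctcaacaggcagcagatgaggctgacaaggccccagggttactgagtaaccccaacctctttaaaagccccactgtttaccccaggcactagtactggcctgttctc
Guca2b, chr4:119658946-119659195, minus strand: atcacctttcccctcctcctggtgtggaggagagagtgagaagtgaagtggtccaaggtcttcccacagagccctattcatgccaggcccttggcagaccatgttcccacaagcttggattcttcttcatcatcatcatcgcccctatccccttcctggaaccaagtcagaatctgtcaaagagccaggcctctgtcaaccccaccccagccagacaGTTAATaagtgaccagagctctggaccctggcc
Slc26a3, chr12:31437969-31438218, plus strand: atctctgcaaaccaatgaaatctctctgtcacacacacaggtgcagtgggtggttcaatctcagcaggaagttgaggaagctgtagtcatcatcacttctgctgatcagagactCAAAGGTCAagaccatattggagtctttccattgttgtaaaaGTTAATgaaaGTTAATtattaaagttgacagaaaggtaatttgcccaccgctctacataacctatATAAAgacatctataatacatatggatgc
The Slc26a3 window holds CAAAGGTCA from 136 to 128 bases before the start, a match found in 0.426% of all 32851 windows of this length. It also holds GTTAAT at 94 and 84 bases before the start and ATAAA at 29. The Guca2b window holds 1 GTTAAT, 33 bases before the start, and the Guca2a window holds AGATAA in reverse at 144 and 120 bases before the start. Of all windows 6.43% hold GTTAAT, 9.99% AGATAA and 37.3% ATAAA; 0.384% hold CAAAGTCCA, which is in none of the 3 windows shown. No match overlapped another. A match says only that these letters are present.

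**Figure D1:**
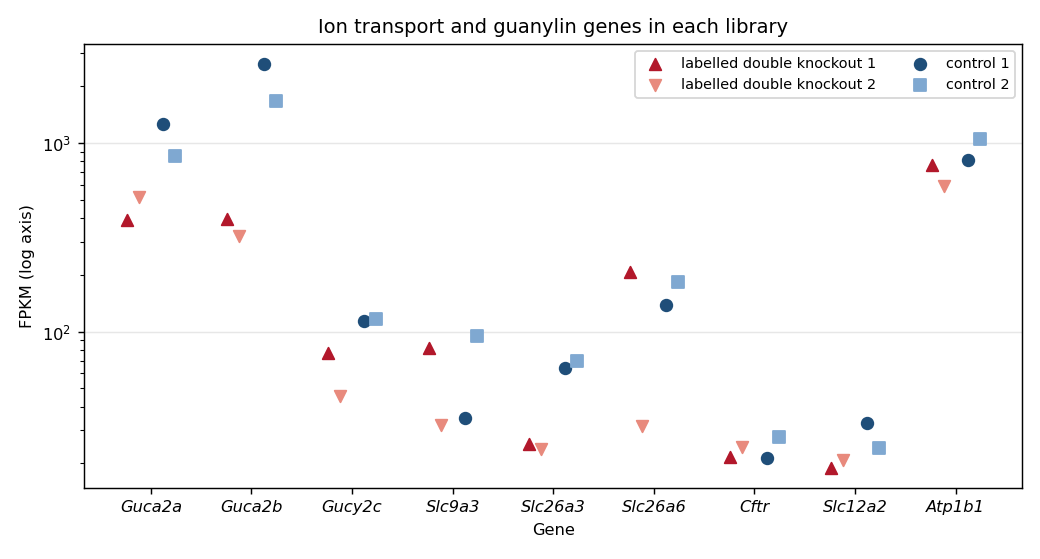
Level of each of the 9 genes in every library, in FPKM on a log axis, with the libraries labelled double knockout to the left of the controls for each gene. The groups do not overlap for 6 of the 9 genes, namely Guca2a, Guca2b, Gucy2c, Slc26a3, Slc12a2 and Atp1b1. The called genes Guca2b and Slc26a3 have controls 1.57 and 1.08 times apart. Slc9a3 and Slc26a6 differ by 2.55 and 6.54 times between the libraries labelled double knockout.

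Uroguanylin (Guca2b; chromosome 4, 119329208 to 119331550, mm9) had the deepest fall of the 9 genes. Its level was 397 and 322 FPKM in the libraries labelled double knockout, against 2619 and 1669 FPKM in controls. Both controls stood above both libraries labelled double knockout, with 1669 FPKM as the lower control and 397 FPKM as the higher of the others. The means were 360 ± 53.0 and 2144 ± 672 FPKM (SD, n = 2 each), a 5.96-fold lower level (limma on log2(FPKM + 1), -2.54 ± 0.30 (SE) in log2, adjusted p = 0.0130). Leaving out control replicate 1 (limma, adjusted p = 0.0562) or double knockout replicate 2 (0.0614) ended the call, the range over all alternatives being 0.0120 to 0.0614.

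Guanylin (Guca2a; chromosome 4, 119310337 to 119312070) was at 390 and 515 FPKM in the libraries labelled double knockout, against 1268 and 855 FPKM in controls. The groups did not overlap, but the controls differed from each other by 1.48 times. Means of 452 ± 88.2 and 1061 ± 293 FPKM (SD, n = 2 each) gave a log2 fold change of -1.21 ± 0.29 (SE), which did not pass the threshold (limma, adjusted p = 0.0666) and whose 95% interval ran from -1.96 to -0.47. In the authors' deposited table guanylin is called, at 447 FPKM in the knockout and 1058 in control (q = 0.00669).

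The ligand genes lie on the same chromosome with 17137 bases and no other listed gene between them. Their balance differed: the ratio of uroguanylin to guanylin within a library was 1.02 and 0.626 in the libraries labelled double knockout, against 2.07 and 1.95 in controls. In the libraries labelled double knockout the ligands were about equal or guanylin was the more abundant, and in both controls uroguanylin was. Summed, the ligands came to 787 and 837 FPKM, against 3887 and 2523 FPKM in controls. With 2 libraries against 2 an exact permutation test cannot give a p under 0.333, so the ratio is given without a test. The nearest gene before the pair, Foxj3, a forkhead factor whose locus ends 8612 bases before guanylin, was at 12.9 and 13.9 FPKM, against 16.8 and 17.4 FPKM in controls (limma, adjusted p = 0.226). The nearest after it, Hivep3, 155732 bases beyond uroguanylin, stayed at or below 0.136 FPKM in all 4 libraries and was not tested.

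The receptor gene Gucy2c (chromosome 6, 136645805 to 136730263) stood at 76.6 and 45.5 FPKM in the libraries labelled double knockout, against 114 and 117 FPKM in controls. Its controls were nearly equal and lay above both others, while the libraries labelled double knockout were 1.68 times apart. In log2 the difference was -0.96 ± 0.28 (SE, limma, adjusted p = 0.0998), with a 95% interval from -1.67 to -0.24. Without double knockout replicate 1 it passed the threshold at -1.32 (limma, adjusted p = 0.0407, against 0.0407 to 0.278 over all alternatives). The authors' deposited table calls it at 56.5 FPKM in the knockout and 110 in control (q = 0.0434).

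**Figure D2:**
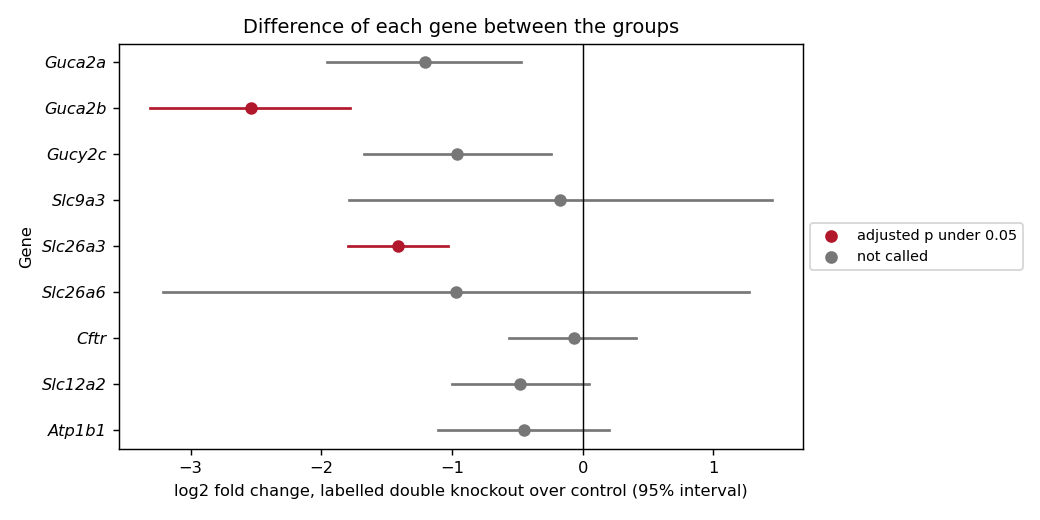
Fitted log2 fold change of each of the 9 genes, labelled double knockout over control, with its 95% interval from limma on log2(FPKM + 1). The intervals of Guca2b (-3.31 to -1.78) and Slc26a3 (-1.80 to -1.03) lie furthest below 0, and those of Slc9a3 and Slc26a6 are the widest.

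Slc26a3, the apical chloride bicarbonate exchanger lost in human congenital chloride diarrhoea (chromosome 12, 32123084 to 32158784), was at 25.2 and 23.9 FPKM in the libraries labelled double knockout, against 64.5 and 69.7 FPKM in controls. It was the tightest of the 9 genes, with libraries of one genotype within 1.08 times of each other. Means of 24.5 ± 0.947 and 67.1 ± 3.64 FPKM (SD, n = 2 each) gave a 2.74-fold lower level (limma, -1.41 ± 0.15 (SE) in log2, adjusted p = 0.0100). With a single control left the fold change was -1.47 and -1.36, and the adjusted p 0.0575 without control replicate 1 and 0.0656 without control replicate 2, out of 0.00996 to 0.0656 over all alternatives. The authors' deposited table calls it at 24.7 and 66.4 FPKM (q = 0.000868).

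Its relative Slc26a6, an apical exchanger of chloride, bicarbonate and oxalate (chromosome 9, 108756374 to 108815380), was at 206 and 31.5 FPKM in the libraries labelled double knockout, against 138 and 184 FPKM in controls. One of them was above both controls and the other was the lowest of the 4 libraries. The fitted difference was -0.97 ± 0.87 (SE, log2, limma, adjusted p = 0.517) with an interval from -3.21 to 1.27, so these data do not set its direction. Without double knockout replicate 1 it was -2.30 (limma, adjusted p = 0.0255) and without double knockout replicate 2 it was 0.37 (0.532), the adjusted p running from 0.0255 to 0.745 over all alternatives.

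Slc9a3, the apical exchanger that takes up most luminal sodium in exchange for protons (chromosome 13, 74258963 to 74303512), varied in both genotypes. It was at 81.5 and 32 FPKM in the libraries labelled double knockout, against 35 and 94.8 FPKM in controls. Each genotype held 1 high and 1 low library, 2.55 and 2.71 times apart, and the groups overlapped throughout. The fitted difference was -0.17 ± 0.63 (SE, log2, limma, adjusted p = 0.886) with an interval from -1.79 to 1.45; it turned to 0.53 without control replicate 2 and to 0.49 without double knockout replicate 2.

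The replicate gap of Slc26a6 was 2.67 log2 units between the libraries labelled double knockout, a gap that 0.698% of all genes tested reached or passed, and that of Slc9a3 was 1.32, reached by 2.88%. Among the controls Slc9a3 had a gap of -1.41 (replicate 1 minus 2), reached by 1.55% of genes, and Slc26a6 one of -0.41, reached by 25.0%. Prkg2, the kinase through which cyclic GMP acts on Cftr and Slc9a3, was chosen after its values were seen and had 46.5 and 10.5 FPKM, against 27.0 and 35.2 FPKM in controls. It was lowest in double knockout replicate 2, as were Slc26a6 and Slc9a3. In that library the 7 absorptive enterocyte markers summed to 25640 FPKM, the lowest of the 4. Of these markers Fabp2 was highest in that library (8924 FPKM), and Alpi (764 FPKM) lay above both controls (447 and 645 FPKM). Vil1, Fabp1, Apoa4, Apob and Krt20 were lowest there. The 5 Paneth cell markers summed to 62516 FPKM in that library, against 28810 to 44470 in the others. Of that sum 57893 FPKM was Defa24, and none of the other 4 Paneth cell markers was highest in that library. Control replicates 1 and 2 differed too, with 373 and 151 FPKM over 5 crypt stem cell markers and 18.1 and 76.5 FPKM over 5 tuft cell markers. Their absorptive enterocyte sums were 28301 and 31829 FPKM. The part of these cells in the gaps was not tested.

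**Figure D3:**
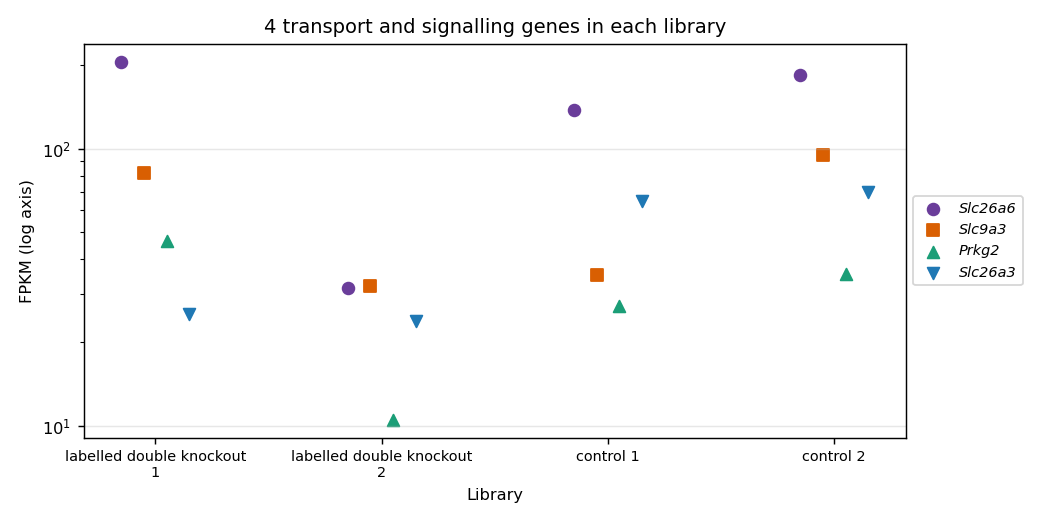
FPKM of 4 genes in each library on a log axis, with the libraries labelled double knockout on the left. Slc26a6, Slc9a3 and Prkg2 are lowest in double knockout replicate 2, while Slc26a3 lies at 25.2 and 23.9 FPKM in both libraries labelled double knockout.

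Of the secretory genes and the pump subunit none passed the threshold in limma, at an adjusted or an unadjusted p. Cftr, the cyclic nucleotide-controlled chloride and bicarbonate channel (chromosome 6, 18120687 to 18272769), was at 21.7 and 24.3 FPKM in the libraries labelled double knockout, against 21.3 and 27.5 FPKM in controls. Its values overlapped, and the interval of the log2 fold change, from -0.56 to 0.41, bounds any difference more closely than for any exchanger but Slc26a3 (-0.07 ± 0.19, SE, limma, adjusted p = 0.838). The sign turned to 0.15 with FPKM estimated for each library alone, to 0.10 without control replicate 2 and to 0.01 without double knockout replicate 1.

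Slc12a2, the basolateral cotransporter that loads secretory cells with chloride, was at 19.0 and 20.8 FPKM, against 32.9 and 24 FPKM in controls. The groups did not overlap, though the lower control lay close to the higher of the others, and the difference was not called (-0.48 ± 0.20, SE, log2, interval -1.0 to 0.05, limma, adjusted p = 0.207). Atp1b1 (chromosome 1, 166367230 to 166388486) was at 769 and 591 FPKM, against 809 and 1049 FPKM in controls. It too lay lower without overlap and was not called (-0.45 ± 0.25, SE, log2, interval -1.11 to 0.20, limma, adjusted p = 0.312).

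By level, the order differed between the genotypes. Among the libraries labelled double knockout Atp1b1 came first (680 FPKM on average), then guanylin (452), uroguanylin (360), Slc26a6 (119), Gucy2c (61.0), Slc9a3 (56.7), Slc26a3 (24.5), Cftr (23.0) and Slc12a2 (19.9). In controls uroguanylin came first (2144 FPKM), then guanylin (1061), Atp1b1 (929), Slc26a6 (161), Gucy2c (115), Slc26a3 (67.1), Slc9a3 (64.9), Slc12a2 (28.5) and Cftr (24.4). Neighbours whose libraries overlapped in the libraries labelled double knockout were guanylin with uroguanylin, Slc26a6 with Gucy2c, Gucy2c with Slc9a3, and Slc26a3 with Cftr. In controls they were guanylin with Atp1b1, Slc26a3 with Slc9a3, and Slc12a2 with Cftr.

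The tested genes whose centred log2 values over the 4 libraries lay nearest to those of Slc26a3 were Ltc4s, a leukotriene synthase (7.13 and 6.73 FPKM, against 19.1 and 21.1 in controls; Euclidean distance 0.0201), and Slc35e2 (4.45 and 4.10, against 12.9 and 13.9; distance 0.0381). For uroguanylin they were Faah, an amide hydrolase (9.86 and 8.36 FPKM, against 74.1 and 42.8; distance 0.116), and Olfr165, of a large receptor family (0.205 FPKM and listed at 0, against 7.74 and 4.48; distance 0.117). The distances rest on log2(FPKM + 1), which understates changes of low genes. The mean of Olfr165 was 59.7-fold lower, against 5.96-fold for uroguanylin. With 4 libraries many genes can lie this close.

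The other genes of ion transport and its control came from 8 lists, with 96 genes of which 70 were tested. Apart from the 9 genes above, 61 were tested and limma called 7 higher (11.5%) and 8 lower (13.1%), with a median log2 fold change of -0.12 against 0.02 over all genes. Of all genes tested 3.77% were called higher and 5.80% lower, shares to be set beside each list count below. The lists were chosen with earlier results of these data known, so a larger share is not a result about them. In the guanylin and cyclic GMP list 3 of 7 were called lower: uroguanylin and the phosphodiesterases that break down cyclic GMP, Pde5a (7.02 and 7.40 FPKM, against 18.3 and 19.2 in controls; limma, adjusted p = 0.0128) and Pde9a (17.1 and 17.4, against 44.8 and 54.3; adjusted p = 0.0122). The median of these 7 was -1.21, and with no filter but a mean above 0 the median of the list was -0.10. Guanylin and Gucy2c, in the same list, did not pass the test. Neither did Abcc4, which lay the other way, at 4.67 and 0.705 FPKM, against 0.379 and 0.273 in controls (limma, adjusted p = 0.245). The authors' deposited table calls Abcc4 higher (q = 0.000868). It was named after its values were seen.

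**Figure D4:**
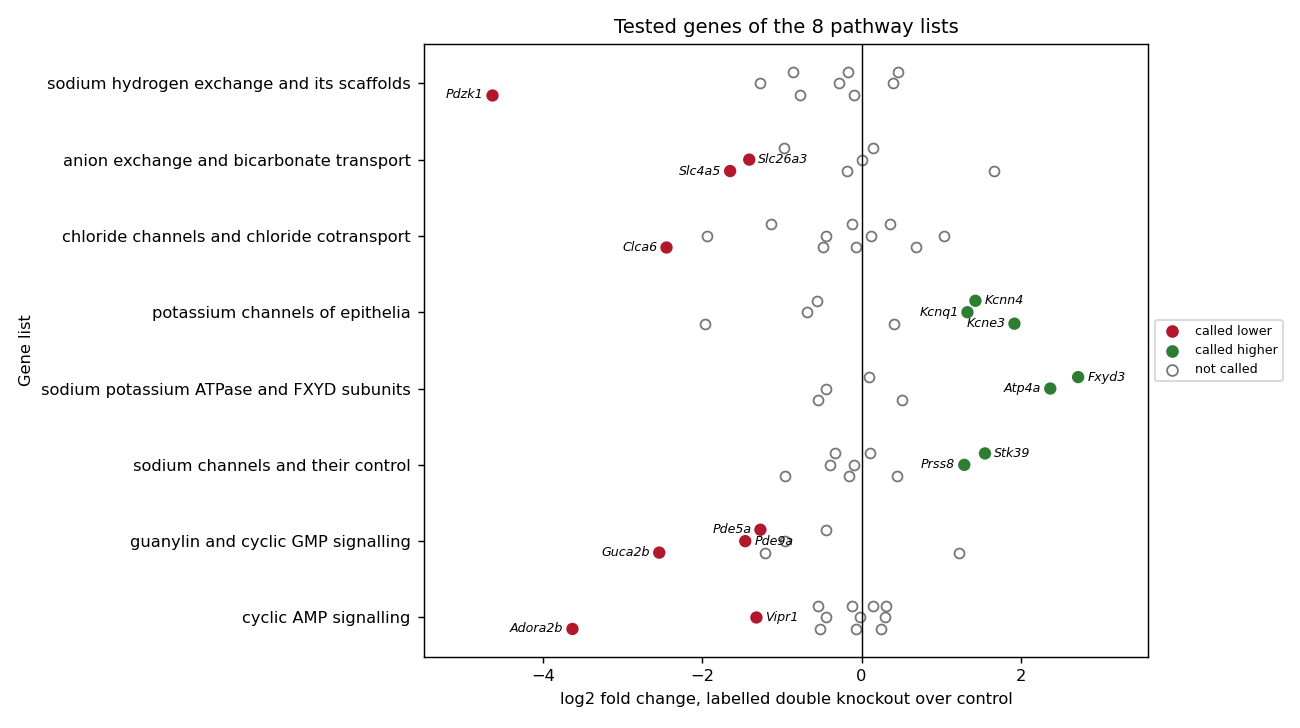
Log2 fold change, labelled double knockout over control, of the tested genes of the 8 lists, except those not reported here; filled points passed an adjusted p under 0.05 and carry their symbol. Called genes of the potassium channel, ATPase and sodium channel lists lie above 0, and those of the other 5 lists below it.

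Of the sodium hydrogen exchange list 1 of 9 tested genes was called. Pdzk1, a PDZ protein that holds Slc9a3 and other transporters at the microvillus, fell to 12 and 4.91 FPKM, against 236 and 201 FPKM in controls, a 25.8-fold lower mean (limma, -4.64 ± 0.40 (SE) in log2, adjusted p = 0.00718). Slc9a3r1, the related scaffold NHERF1, was at 402 and 393 FPKM, against 720 and 728 FPKM, and just missed the threshold (-0.86 ± 0.18, SE, limma, adjusted p = 0.0509). Ezrin (Ezr), the actin linker that Slc9a3r1 binds, was at 396 and 402 FPKM, against 392 and 464 (limma, adjusted p = 0.777).

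Among anion and chloride transporters 4 genes were called lower in 2 lists of 7 and 12 tested genes, Slc26a3 included. Among the others were Slc4a5, a sodium bicarbonate cotransporter (1.02 and 0.500 FPKM, against 4.6 and 4.3), and Clca6, of a family whose members can share reads (65.7 and 117, against 385 and 610; limma, adjusted p = 0.0182 and 0.0229). Of those not called, Slc26a6 is described above, and the next named by abundance were Slc26a2 (70.2 and 40.0 FPKM, against 38.3 and 59.5), Clcn2 (55.6 and 34.5, against 45.9 and 49.4) and the goblet cell gene Clca3 (502 and 875, against 841 and 2547), with limma adjusted p-values of 0.823, 0.805 and 0.282.

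Of the potassium channel list 3 of 7 were called higher and 0 lower. Kcne3 was at 222 and 183 FPKM, against 55.2 and 50.1 FPKM in controls (limma, adjusted p = 0.00809), and its partner Kcnq1, with which it forms the basolateral channel that sustains chloride secretion, at 48.8 and 56.9 FPKM, against 23.0 and 18.0 (0.0198). Kcnn4, a calcium-activated channel, was at 30.9 and 32.1 FPKM, against 14.4 and 8.38 (0.0400). The leak channels Kcnk5 (33.8 and 27.8 FPKM, against 42.2 and 49.9) and Kcnk1 (34.7 and 35.3, against 27.1 and 25.1) were not called (0.124 and 0.146). Neither were Kcnj13 (0.0659 FPKM and listed at 0, against 1.55 and 5.39) and Kcnj16 (0.903 and 0.720, against 0.327 and 5.33), inward rectifiers named after their values were seen (0.0666 and 0.595). The authors' deposited table calls Kcnj16 (q = 0.00815) but not Kcnj13 (q = 0.536). In the ATPase list Fxyd3, a regulator of the sodium potassium pump, rose to 279 and 257 FPKM, against 41.6 and 38.0 FPKM (log2 fold change 2.72 ± 0.16, SE, limma, adjusted p = 0.00272). Atp4a, the gastric proton pump subunit placed in that list, was at 6.72 and 3.95 FPKM, against 0.240 and 0.153 (0.0129).

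In the sodium channel list 2 of 9 were called higher: Stk39, a kinase that activates Slc12a2 (29.8 and 33.5 FPKM, against 11.3 and 9.06), and Prss8, a channel-activating protease (35.3 and 30.3, against 15.5 and 10.5; limma, adjusted p = 0.0122 and 0.0340). Sgk1 (233 and 230 FPKM, against 244 and 187) and Oxsr1 (17.1 and 14.7, against 17.1 and 18.6) were not called (0.753 and 0.562). Of the cyclic AMP list 2 of 12 were called lower, both receptors that raise cyclic AMP. Adora2b, an adenosine receptor, was at 0.0919 FPKM and listed at 0, against 9.94 and 14.4 FPKM in controls, and Vipr1, a receptor of vasoactive intestinal peptide, at 37.3 and 33.6 FPKM, against 95.8 and 84.7 (limma, adjusted p = 0.00360 and 0.0144). The G protein gene Gnas was at 308 and 291 FPKM, against 310 and 297, and Prkar1a at 55.0 and 48.6, against 42.2 and 45.0 (0.957 and 0.373). The authors' deposited table does not call Adora2b (q = 0.433). With 0.1 or 5 added to FPKM in place of 1, the log2 fold change of Adora2b was -6.44 or -1.75, so its size is not set.

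Adora2b and Slc4a5 averaged under 1 FPKM in the libraries labelled double knockout, and Atp4a did so in controls. They passed the filter only through the group where they were higher. That filter used all 4 libraries in every fit, so leaving a library out could not remove a gene. Of these 15 called genes Fxyd3 and Adora2b kept their call whichever library was left out. The same 13 others lost it when either control was left out. Double knockout replicate 2 left out, it was lost for 9, among them Slc4a5, Kcnq1, Kcnn4, Stk39, Prss8, Pde5a, Pde9a and Vipr1, and double knockout replicate 1 left out, for 6, among them Clca6, Kcnq1, Kcnn4, Prss8 and Pde5a (limma, adjusted p from 0.05 to 0.145). Enteroendocrine markers were lower as well, with 43.3 to 67.5 FPKM summed over 5 genes, against 126 and 160 FPKM in controls, and 2 of 4 tested called (Chgb and Neurod1). Goblet cell markers summed to 7941 and 6384 FPKM, against 8153 and 9088 FPKM. The part of these cells in the levels above was not tested.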

How the data were processed

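Libraries of jejunal epithelium, 2 of each genotype, were sequenced from one end for 75 bases. The submitters' processing notes name build mm9 and, without roles, Cuffdiff, Cuffnorm, Cufflinks (2.1.1) and TopHat2 (2.0.9). The authors deposited a table of values for all 4 libraries with no unit in its header; from these values and the mention of Cuffnorm they were treated as FPKM normalized between libraries. They also deposited FPKM estimated for each library alone and a comparison with group FPKM, p-values and q-values, per the file headers. No counts were used, so depth is unknown and no counting error is given. The deposited loci count from 0 (in 10600 genes the width equals the RefSeq length); starts were raised by 1.

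Here rows of one symbol were summed, short RNAs left out, and genes averaging 1 FPKM or more over the 4 libraries fitted with limma (version 3.58.1, R version 4.3.3) on log2(FPKM + 1), genotype as the only term, with an intensity trend. P-values are two-sided, with Benjamini-Hochberg adjustment over all 10883 genes; a called gene has an adjusted p under 0.05. This log scale understates changes of low genes, and folds in the text are ratios of mean FPKM. The procedure was tested on simulated data in which every gene had the same spread. Spread differed between genes in the real data, so that test does not show how reliable the calls are. Labels call the libraries biological replicates; separate animals are not stated for each, so p-values measure the spread between these libraries. The alternatives changed pseudocount, filter, scaling, FPKM source, variance model and replicate block, and left out each library. The genes, lists and rules were chosen with earlier results of these data known. By rule the text names the 9 genes, Hnf4a and Cdx2, every called gene of the 8 lists and the 2 most abundant not called, the neighbours of the guanylin pair, and the 2 nearest profiles of each called gene; some genes of the lists are counted but not reported here by name.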

Additional observations from a re-analysis of the deposited data

How the results depend on the processing

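Leaving out 1 library changed the counts most. Over these 4 fits limma called 171 to 693 genes in place of 1041 (67 to 309 higher and 97 to 384 lower), 0 to 4 of the 9 ion transport and guanylin genes in place of 2 and none of them higher, and 3 to 14 of the pathway list genes in place of 17 (1 to 4 higher and 2 to 10 lower). A fit with 1 library in a group assumes that it varies like the other group. Of the 9 genes, 0 were called with control replicate 1 left out, 1 with control replicate 2, 4 with double knockout replicate 1 and 1 with double knockout replicate 2 left out. With no filter but a mean above 0, 268 genes were called higher, and Clca6, Kcnn4 and Prss8 lost their calls (limma, adjusted p = 0.0528, 0.0756 and 0.0655), as did Kcnn4 with FPKM estimated for each library alone (0.0568). In the other alternatives, which kept all libraries, the count for the 9 genes was 2.

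FPKM estimated for each library alone gave 482 genes higher and 451 lower, against 410 and 631, with the median of all genes at 0.17 in place of 0.02 on the log2 scale. The median ratio of these values to the normalized ones was 0.867 and 0.941 in the libraries labelled double knockout, against 0.845 and 0.759 in controls. The part of this difference in scale in the calls was not tested. The sign turned for Slc9a3 (0.53 and 0.49, in a range from -0.88 with 1 library left out), Slc26a6 (0.37, from -2.30) and Cftr (0.10 and 0.01, from -0.25, and 0.15 with FPKM of each library alone), none of them called in the main comparison. The replicate numbers share no stated animal or batch, and the deviations of same-numbered libraries correlated at -0.005 across genes. With the replicate block limma called 786 genes, and 2 of the 9 (Guca2b, adjusted p = 0.0193, and Slc26a3, 0.0271). Of 104 list medians under the alternatives, 68 moved by less than the spread between replicates and 36 by more. Depth is unknown, so low values have no counting error.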

Other observations

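Genes of the lists that lay under the filter were described and not tested. The epithelial sodium channel subunit Scnn1b was listed at 0 in all 4 libraries and Scnn1g did not exceed 0.0355 FPKM, while the third subunit gene, Scnn1a, was at 12.2 and 9.86 FPKM in the libraries labelled double knockout, against 8.05 and 7.61 FPKM in controls (limma, adjusted p = 0.181). Slc26a9, an anion transporter of stomach and airway, was at 0.745 and 0.401 FPKM and listed at 0 in both controls. Best2, a bicarbonate channel of colonic goblet cells, did not exceed 0.446 FPKM, and the colonic proton pump gene Atp12a not 0.0263 FPKM. Prkg1, the cyclic GMP-dependent kinase of smooth muscle, did not exceed 0.0147 FPKM, beside 10.5 to 46.5 FPKM of the epithelial Prkg2. These genes were chosen after their values were seen.

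Some genes of the lists lay apart between genotypes without being called by limma. Clca4 was at 12.4 and 14.5 FPKM, against 106 and 27.6 FPKM in controls, and the bicarbonate cotransporter Slc4a7 at 65.3 and 54.6 FPKM, against 9.75 and 33.3 FPKM (limma, adjusted p = 0.122 and 0.131), with controls 3.82 and 3.41 times apart. Pdzd3, another PDZ scaffold, which is known to bind Gucy2c and Slc9a3, was at 12.7 and 6.83 FPKM, against 23.5 and 24.5 FPKM, and missed the threshold (log2 fold change -1.27 ± 0.29, SE, limma, adjusted p = 0.0636). The authors' deposited table calls Clca4 and Slc4a7 (q = 0.000868 each) and Pdzd3 (q = 0.00159). These genes too were chosen after their values were seen.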
